A study of Mus musculus with 12 samples.

Results

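The genes followed here mark the fetal hepatocyte or the bile duct in mouse liver, and are 10 of the 57180 genes counted, chosen by name. They are Afp, H19, Igf2 and Gpc3 (fetal hepatocyte genes), Cd24a and Epcam (surface proteins of progenitor and biliary cells), and Sox9, Krt19, Krt7 and Spp1 (ductular genes). All 10 had enough reads to be tested, as had 19350 genes in all. Livers came from 12 mice, with 3 females and 3 males of the Het genotype and as many of the KO genotype. Every mouse was Csa-/- by the study's account, Csa (Ercc8) being the gene mutated in Cockayne syndrome A, and every litter had been injected as newborns, in the lateral ventricles of the brain, with AAV9-CSA, a vector carrying human CSA. The Het mice were Csa-/- Xpa+/- littermates without signs of disease, of matched age. The KO mice were the Csa-/- Xpa-/- (CX) mice taken when severe hunching and tremor set in, although the study's methods also write KO as Csa-/- Xpa+/+. The age of each mouse was not given in the sources used here, and KO genotype, terminal illness and its consequences cannot be told apart in this design.

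The genotype was checked on Xpa, a nucleotide excision repair gene. Xpa reached 3.10 to 6.34 CPM in the 6 Het livers and 0.992 to 1.83 CPM in the 6 KO livers, a log2 fold change of -1.83 (adjusted p = 4.14e-05, edgeR), and every KO liver lay below every Het liver. Reads on Ercc8 ran from 5.10 to 8.68 CPM in Het and from 14.8 to 33.99 CPM in KO livers, without overlap (log2 fold change 1.62, adjusted p = 1.56e-04). So every liver held reads on a gene described as lost, 196 to 1097 of them, and which part of the gene or of the vector they match was not tested. CPM are reads per 1e+06 of the scaled library, and each library held 30044781 to 43634046 reads assigned to genes. Nothing in the labels names a batch, and no pair of livers in a group agreed within sampling noise. Hepatocyte markers were high in every liver, where the 9 listed markers that the table holds summed to 77333 to 100383 CPM in Het and 96696 to 155837 CPM in KO.

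In the fetal liver, hepatocytes secrete alpha-fetoprotein, the product of Afp, and make the growth factor IGF2 from an imprinted locus that also gives the noncoding RNA H19. These genes are shut down after birth and can return during regeneration and in liver tumours. Bile duct cells keep the transcription factor SOX9, the keratins 7 and 19 and osteopontin, the product of Spp1. In a ductular reaction, cells with these markers multiply around the portal tracts, often with surface EPCAM and CD24.

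Among the 10 genes, the calls in KO liver fell on fetal genes. Afp, H19 and Igf2 rose, 3 of the 4 fetal genes, by log2 fold changes of 3.92, 2.84 and 1.61 over both sexes (standard errors 0.282, 0.565 and 0.284). Gpc3 was 0.79 higher on the log2 scale and did not pass the test. None of the 6 progenitor or ductular genes passed, with log2 fold changes between -0.35 and 0.39. The background was 12.2% of tested genes with a rise and 10.2% with a fall in KO at an adjusted p under 0.05. It also stands beside the counts of calls over both sexes in each gene list below. The median log2 fold change was 2.22 over the fetal genes, 0.05 over the pair of surface genes and 0.21 over the ductular genes, beside 0.02 over all tested genes. The tissue was taken whole, so fewer cells of a type and less RNA per cell cannot be told apart.

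**Figure D1:**
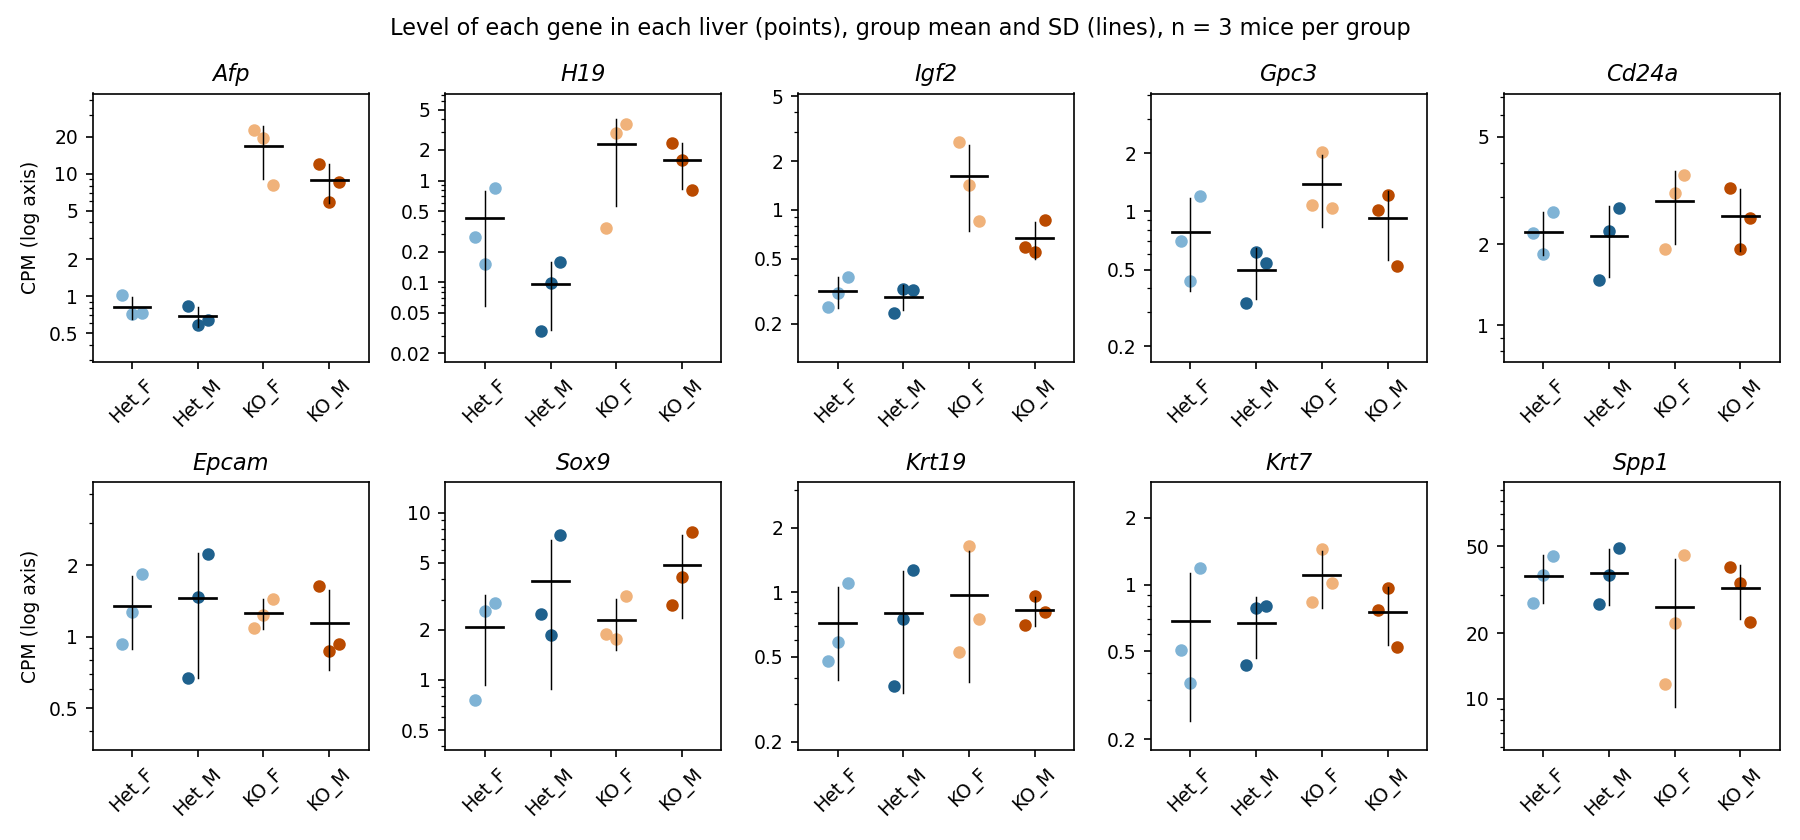
Level of each of the 10 genes in each of the 12 livers, in CPM on a log axis; each point is 1 mouse, the bar is the mean of 3 mice and the thin line its SD. Afp and Igf2 of every KO liver lie above every Het liver, H19 overlaps as KO_F_108 and KO_M_136 lie below Het_F_126, and the other 7 genes overlap between the genotypes.

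Afp (ENSMUSG00000054932.7, GRCm39 chromosome 5, 90638584 to 90656766, plus strand) encodes the main plasma protein of the fetus. The 3 Het females held 1.01, 0.714 and 0.734 CPM, and the 3 Het males 0.834, 0.585 and 0.639 CPM. KO females reached 22.6, 19.4 and 8.09 CPM, and KO males 12.1, 5.91 and 8.61 CPM. The lowest KO liver thus lay above the highest Het liver, a separation seen in 4.72% of all tested genes in this direction. The counts behind these values were 18 to 36 reads in Het and 203 to 728 reads in KO. The fitted change was 15.2-fold (95% confidence interval of the log2 fold change 3.31 to 4.54, adjusted p = 7.25e-06, by the quasi-likelihood test of edgeR after Benjamini-Hochberg adjustment). It was called in females (log2 fold change 4.26 ± 0.399 SE, adjusted p = 2.25e-04) and in males (3.59 ± 0.400 SE, adjusted p = 5.77e-04). The difference between the sexes was -0.67 for males against females and did not pass the test (95% interval -1.89 to 0.56, adjusted p = 0.728).

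Even in KO liver, Afp stayed far below albumin, its adult counterpart in the same gene family. On the TPM scale, which divides by transcript length, a KO liver had 2265 to 11960 units of Alb for each unit of Afp, with a median of 5896. In Het livers the ratio was 36420 to 69410, with a median of 62700. Alb itself was at 48541 CPM in Het and 71812 CPM in KO on average (log2 fold change 0.57, adjusted p = 0.062). Afm, which encodes afamin and lies 10 kb beyond Afp, fell from 190 ± 37.7 to 103 ± 30.8 CPM (SD, n = 6 each; log2 fold change -0.88, adjusted p = 0.00533). Gc, the vitamin D binding protein gene, gave 4289 and 4547 CPM (adjusted p = 0.688), so that 1 of the 3 other genes of this family was called, and it was lower.

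Afp and Alb are neighbours, with 13.9 kb between them, and their promoters are shown because Alb, the adult counterpart of Afp, lies beside it. The windows hold the 250 bases before and 50 after the start of each gene in RefSeq, and were placed on GRCm39 by an exact match. Capitals mark the letters TATAAA, a form of the TATA box and the only form searched. They were found in the Afp window only, where they begin 7 bases before the RefSeq start. The start given above for the Afp gene, 90638584 (GENCODE), lies downstream of that RefSeq start, so the distance depends on the start used.
Afp, chr5:90638323-90638622, plus strand: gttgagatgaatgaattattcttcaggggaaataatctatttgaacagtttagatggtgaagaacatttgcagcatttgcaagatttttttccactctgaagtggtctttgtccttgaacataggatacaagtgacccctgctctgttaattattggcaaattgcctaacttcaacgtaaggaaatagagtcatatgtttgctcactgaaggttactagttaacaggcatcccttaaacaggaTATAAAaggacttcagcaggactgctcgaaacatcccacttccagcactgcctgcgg
Alb, chr5:90608479-90608778, plus strand: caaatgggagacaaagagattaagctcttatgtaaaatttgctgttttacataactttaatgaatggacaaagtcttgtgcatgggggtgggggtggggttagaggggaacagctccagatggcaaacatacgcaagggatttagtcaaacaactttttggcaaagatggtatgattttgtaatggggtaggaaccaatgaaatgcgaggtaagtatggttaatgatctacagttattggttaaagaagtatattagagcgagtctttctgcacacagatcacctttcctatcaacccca
Searched on both strands, TATAAA occurs in 13.6% of 32851 RefSeq promoter windows of this length. A match describes the letters only, and its absence from the Alb window says only that these letters are not there.

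Some of the listed regulators of Afp were lower in KO and none was called higher. Of 15 such genes, all tested, 0 were called higher and 5 lower, with a median log2 fold change of -0.38. Cebpa, a hepatocyte differentiation factor, fell from 254.7 ± 75.0 to 118.2 ± 34.7 CPM, with no overlap between the genotypes (log2 fold change -1.10, adjusted p = 5.86e-04). Nr2f2, which encodes the nuclear receptor COUP-TFII, fell by 0.92 and the pioneer factor gene Foxa1 by 1.01 on the log2 scale (adjusted p = 0.00322 and 0.00867). The others called were Zbtb20 and Zhx2, named here after their values were seen because they are known repressors of Afp after birth. Zbtb20 fell from 499 to 361 CPM (log2 fold change -0.43, adjusted p = 0.0135) and Zhx2 from 19.2 to 14.5 CPM (-0.39, adjusted p = 0.0317), both with overlapping genotypes. By sex, Zbtb20 was at 0.03 in females (adjusted p = 0.916) and -0.90 in males (adjusted p = 0.00524), and Zhx2 at 0.03 (adjusted p = 0.935) and -0.80 (adjusted p = 0.0146), on the log2 scale. The interaction was -0.93 for Zbtb20 and -0.82 for Zhx2 (adjusted p = 0.222 and 0.356), so a difference between the sexes was not shown. The list was not split by the direction in which its genes act on Afp, and their part in the level of Afp was not tested.

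H19 (ENSMUSG00000000031.19, chromosome 7, 142129262 to 142133957, minus strand) is a noncoding RNA made from the maternal allele in the fetus. It rested on few reads in Het livers, 1 to 39, against 11 to 134 in KO. Het females held 0.282, 0.153 and 0.842 CPM and Het males 0.0334, 0.0976 and 0.160 CPM. KO females held 0.341, 2.91 and 3.59 CPM and KO males 2.35, 1.60 and 0.812 CPM. The males separated, whereas in females KO_F_108 lay below Het_F_126, as did KO_M_136 among the KO males. Over both sexes H19 rose 7.16-fold (95% interval of the log2 fold change 1.60 to 4.08, adjusted p = 0.00545). In males the log2 fold change was 3.43 (SE 0.870, adjusted p = 0.0359), beside 2.25 in females (SE 0.721, adjusted p = 0.0665). The sexes were not shown to differ (interaction 1.18, 95% interval -0.98 to 3.35, adjusted p = 0.723).

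The calls of H19 within a sex depended on which livers were used, and so did its fold change in females. With each mouse left out in turn the female log2 fold change ran from 1.75 to 3.09. It was 1.88 without Het_F_115 (adjusted p = 0.165, edgeR). Without KO_F_108 the female log2 fold change was 2.73 (adjusted p = 0.018), past the threshold, and without Het_F_126 it was 3.09 (adjusted p = 0.0573). In males the call was lost without any one of Het_M_119, Het_M_125, Het_M_137, KO_M_118 or KO_M_122, with adjusted p up to 0.121, while the log2 fold change stayed between 3.02 and 3.76. With length-scaled counts the male value was 2.57 (adjusted p = 0.0768). Over both sexes the call held without each mouse in turn, with log2 fold changes of 2.59 to 3.25.

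Igf2 (ENSMUSG00000048583.18, chromosome 7, 142204503 to 142220694, minus strand) encodes the fetal insulin-like growth factor and lies 70.5 kb from H19. Het females held 0.254, 0.306 and 0.389 CPM and Het males 0.233, 0.325 and 0.320 CPM. KO females held 2.60, 1.42 and 0.858 CPM and KO males 0.589, 0.554 and 0.870 CPM. Every KO liver lay above every Het liver, on 7 to 18 reads in Het and 19 to 84 in KO. Over both sexes Igf2 rose 3.04-fold (95% interval of the log2 fold change 0.98 to 2.23, adjusted p = 0.00279). The log2 fold change was 2.16 in females (SE 0.385, adjusted p = 0.00788) and 1.05 in males (SE 0.415, adjusted p = 0.147). The interaction was -1.11 (95% interval -2.44 to 0.23, adjusted p = 0.598), so a difference between the sexes was not shown. With the length-scaled estimated counts the log2 fold change was 1.97 in females and 1.78 in males, and the interaction -0.19.

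**Figure D2:**
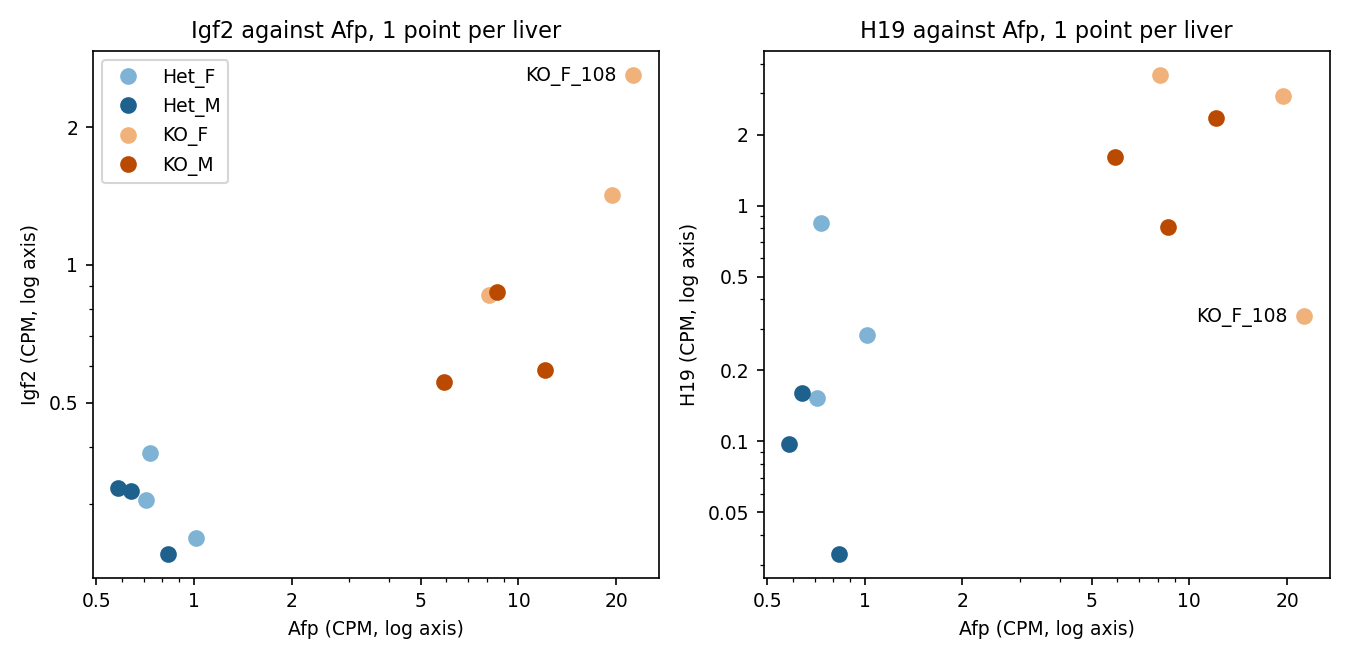
Igf2 (left) and H19 (right) against Afp in each of the 12 livers, in CPM on log axes, coloured by group. KO_F_108 had the highest Afp (22.6 CPM) and Igf2 (2.60 CPM) of all livers and the lowest H19 of the KO livers (0.341 CPM).

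Among the KO livers, Afp and Igf2 ran together and H19 did not follow them. KO_F_108 was highest in Afp and Igf2 and lowest in H19 of the 6. Over the 6 KO livers Pearson's r of log2 CPM was 0.84 between Afp and Igf2, -0.33 between Afp and H19, and -0.57 between Igf2 and H19. Over the 6 Het livers, where H19 and Igf2 rest on few reads, the same pairs gave -0.63, 0.14 and 0.68. The pattern of the KO livers was thus not seen in Het. Over all 12 livers the values were 0.90, 0.73 and 0.55, which include the step between the genotypes. The points of each pair share their libraries and scaling, and 6 livers give a description only.

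Gpc3 (ENSMUSG00000055653.14, chromosome X, 51361303 to 51703137, minus strand) encodes glypican-3, a heparan sulfate proteoglycan of fetal liver and liver cancer. Het females held 0.704, 0.434 and 1.21 CPM and Het males 0.334, 0.618 and 0.544 CPM. KO females held 1.08, 2.04 and 1.05 CPM and KO males 1.02, 1.22 and 0.522 CPM. The genotypes overlapped through Het_F_126, the third highest of the 12, and KO_M_136. The log2 fold change was 0.79 (95% interval 0.14 to 1.45, unadjusted p = 0.0221, adjusted p = 0.0791), with 0.77 in females and 0.82 in males. Without Het_F_126 it was 1.003 (adjusted p = 0.0388), past the threshold. Of the 5 other glypican genes 3 were tested, 1 was called, and it was lower: Gpc4, from 52.0 ± 2.49 to 37.5 ± 4.79 CPM (log2 fold change -0.47, adjusted p = 0.00372).

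Neither surface gene passed the test. Cd24a (ENSMUSG00000047139.10, chromosome 10, 43454280 to 43460264) encodes a small glycoprotein of progenitor cells and leukocytes. It ran from 1.47 to 2.72 CPM in Het (median 2.22) and from 1.92 to 3.62 CPM in KO (median 2.79), with a log2 fold change of 0.31 (95% interval -0.16 to 0.77, adjusted p = 0.325). Epcam (ENSMUSG00000045394.10, chromosome 17, 87943407 to 87958557) encodes the epithelial adhesion molecule of bile duct cells. It ran from 0.667 to 2.24 CPM in Het (median 1.37) and from 0.874 to 1.63 CPM in KO (median 1.16), with a log2 fold change of -0.21 (95% interval -0.83 to 0.40, adjusted p = 0.625). Both genes overlapped between the genotypes.

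The 4 ductular genes did not pass either. Krt19 (ENSMUSG00000020911.15, chromosome 11, 100031636 to 100039491), the keratin of bile duct cells, ran from 0.367 to 1.28 CPM in Het and from 0.527 to 1.64 CPM in KO (log2 fold change 0.21, 95% interval -0.52 to 0.94, adjusted p = 0.696). Krt7 (ENSMUSG00000023039.18, chromosome 15, 101308924 to 101328194), its partner keratin, ran from 0.357 to 1.19 CPM in Het and from 0.522 to 1.45 CPM in KO (0.39, -0.26 to 1.03, adjusted p = 0.377). The upper bounds of both intervals were 0.94 and 1.03, so these livers leave room for larger changes than those fitted.

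Sox9 (ENSMUSG00000000567.6, chromosome 11, 112673009 to 112678586), the transcription factor of ductal progenitors, spread widely within its groups. Het females held 0.761, 2.58 and 2.89 CPM and Het males 2.47, 1.85 and 7.32 CPM. KO females held 1.89, 1.76 and 3.16 CPM and KO males 2.78, 4.11 and 7.63 CPM. Het_M_137 and KO_M_136 were far above the others, 1 in each genotype. The log2 fold change was 0.22 (95% interval -0.69 to 1.12, adjusted p = 0.747), and without KO_M_136 it was -0.033.

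Spp1 (ENSMUSG00000029304.15, chromosome 5, 104582165 to 104589235) encodes osteopontin, secreted by bile duct cells and by activated macrophages. It had the deepest counts of the 10 genes, with 815 to 2097 reads in Het and 377 to 1770 in KO. It ran from 27.2 to 49.1 CPM in Het (median 36.9) and from 11.7 to 45.4 CPM in KO (median 28.2). The log2 fold change was -0.35 (95% interval -1.02 to 0.32, adjusted p = 0.439). KO_F_108, highest in Afp, was lowest in Spp1.

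**Figure D3:**
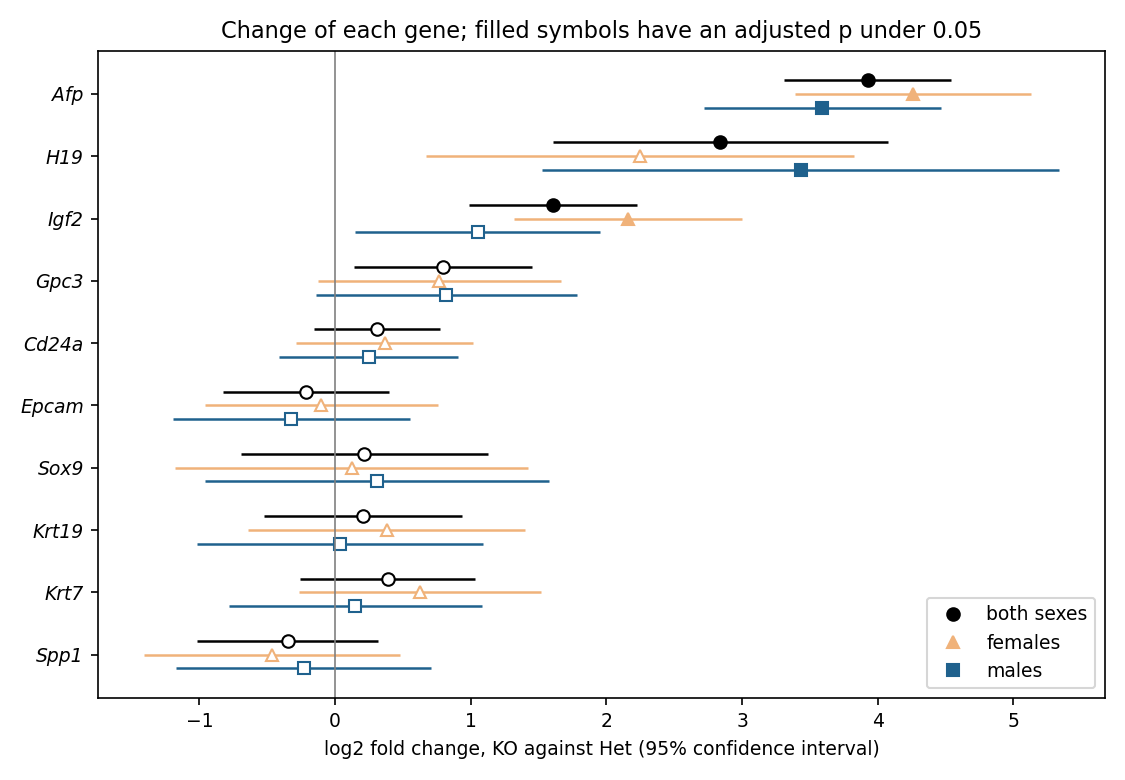
Log2 fold change of KO against Het with its 95% confidence interval for each gene, over both sexes (circles), in females (triangles) and in males (squares), with filled symbols where the adjusted p is under 0.05. Afp is filled in all 3 comparisons, H19 over both sexes and in males, Igf2 over both sexes and in females, and no symbol of the other 7 genes is filled.

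Compared per length, Spp1 was the most abundant of the 10 in Het liver at 21.3 ± 5.61 TPM (SD, n = 6), and Igf2 the least at 0.0902 ± 0.0372 TPM. Between them lay Cd24a (0.947), Epcam (0.635), Krt19 (0.537), Sox9 (0.535), Afp (0.326), Gpc3 (0.228), Krt7 (0.199) and H19 (0.153 TPM). The SDs of neighbours in that order overlap from Cd24a down. In KO liver Spp1 still led with 16.6 ± 7.22 TPM, and Afp was second with 5.34 ± 3.12 TPM. Igf2 and H19 remained under 1 TPM on average, at 0.392 and 0.754.

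By sex, 2 of the 10 genes were called in females (Afp and Igf2) and 2 in males (Afp and H19), all higher. The background in females was 5.94% of tested genes higher and 5.10% lower, and in males 4.47% higher and 2.98% lower. None of the 10 was called for the interaction, as against 0.0465% of all tested genes, and none at an unadjusted p under 0.05. DESeq2 also called none. None was called between the sexes, as against 1.02% of all tested genes, although Igf2 (log2 difference of males against females -0.66, unadjusted p = 0.0477) and Sox9 (0.97, unadjusted p = 0.0392) were below 0.05 before adjustment.

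Other genes of the fetal programme moved in part. Of 13 listed fetal and oncofetal genes 8 were tested, 4 were called higher and 1 lower, with a median log2 fold change of 0.49. Igf2bp3, an oncofetal RNA-binding protein gene, had 0 to 0.0432 CPM in Het and 0.0536 to 0.521 CPM in KO (adjusted p = 0.00544). No Het liver met the filter on low counts for Igf2bp3, so it was tested only through the KO livers where it is high. Hmga1, a chromatin protein gene of proliferating and fetal cells, rose from 7.97 ± 1.06 to 13.4 ± 3.40 CPM (adjusted p = 0.0103). Cyp3a16, a cytochrome P450 of immature mouse liver, spread widely, from 0 to 37.6 CPM in Het and from 0.973 to 168 CPM in KO (adjusted p = 0.0127). Scd2 was the other gene called higher and Mycn the gene called lower, tested only through its Het livers. Dlk1, a marker of hepatoblasts, stayed at 0.538 CPM in Het and 0.611 CPM in KO (adjusted p = 0.766).

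Other imprinted genes did not all share the direction of H19 and Igf2. Of 18 listed, 16 were tested, 3 were called higher and 5 lower, with a median log2 fold change of -0.07. Peg3, a paternally expressed zinc finger gene, rose from 13.3 ± 6.61 to 60.0 ± 44.4 CPM (log2 fold change 2.10, adjusted p = 0.00267). Phlda2, a maternally expressed growth restrictor, had 0 to 0.0650 CPM in Het and 0.0929 to 0.609 CPM in KO (adjusted p = 0.00429), and was tested only through its KO livers. Cdkn1c was the other gene called higher (log2 fold change 0.87, adjusted p = 0.0193, edgeR). Ndn, which encodes necdin, fell by 1.36 on the log2 scale (adjusted p = 0.00686). Igf2r, the receptor that clears IGF2, is outside the 3 of smallest p and is named for its ligand: it fell from 94.3 ± 12.9 to 72.3 ± 10.8 CPM (log2 fold change -0.38, adjusted p = 0.0452).

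**Figure D4:**
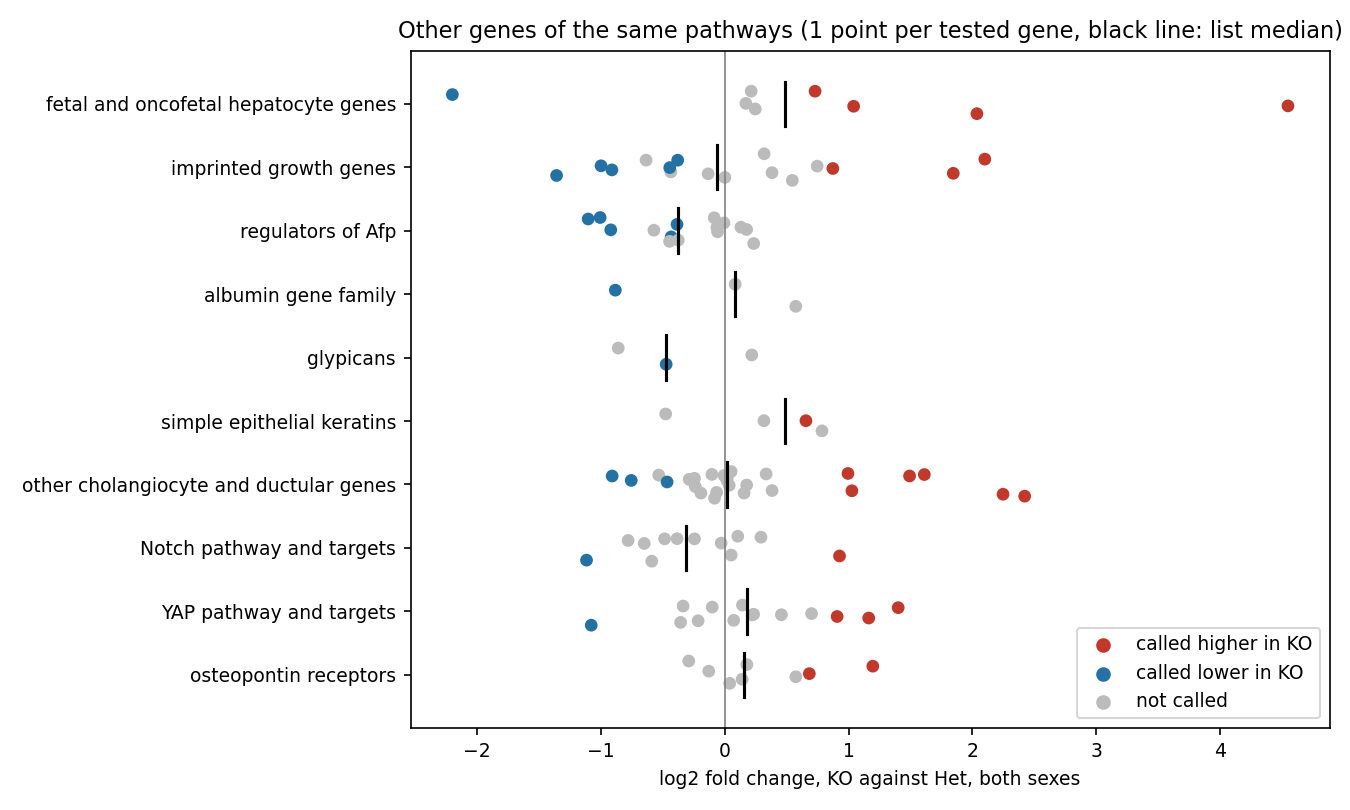
Log2 fold change of KO against Het over both sexes for each tested gene of 10 lists, with red points called higher, blue points called lower and grey points not called; the black line is the list median. The list of fetal genes has a median of 0.49 with 1 gene called lower, the regulators of Afp have no red point, and the cholangiocyte list holds points on both sides around a median of 0.02.

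The wider ductular list showed calls in both directions. Of 28 other cholangiocyte and ductular genes 26 were tested, 6 were called higher and 3 lower, and the median log2 fold change was 0.02. Prom1, which encodes the progenitor surface protein CD133, rose from 4.401 ± 4.62 to 19.3 ± 8.06 CPM (log2 fold change 2.42, adjusted p = 0.00314). The tight junction gene Cldn4 rose by 1.61 and the epithelial transcription factor gene Elf3 by 1.49 on the log2 scale (adjusted p = 0.00218 and 0.00406). Cldn4 and Elf3 stayed under 1.1 CPM in every liver, and Cldn4 was tested only through its KO livers. The 3 genes called lower were more abundant, and which cells carried their transcripts was not tested. The water channel gene Aqp1 fell from 80.1 ± 23.6 to 41.9 ± 13.0 CPM (adjusted p = 0.00669), Pkhd1, which encodes fibrocystin of the primary cilium, from 34.5 ± 6.11 to 20.5 ± 5.94 CPM without overlap (adjusted p = 0.0171), and Wwc1 from 66.5 ± 12.9 to 47.8 ± 7.73 CPM (adjusted p = 0.0319). The keratins 8 and 18 are also made by hepatocytes. Of 5 simple epithelial keratins 4 were tested and 1 was called: Krt18 rose from 136.2 ± 12.5 to 215.7 ± 35.7 CPM (adjusted p = 0.00184).

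The Notch and YAP pathways, which act on ductular genes, were mixed as well. The background was 12.2% of tested genes called higher and 10.2% lower. Whether the counts of these lists and of the osteopontin receptors differ from that background was not tested. Of 12 Notch genes, 1 was called higher (Hey1, a Notch target, log2 fold change 0.93, adjusted p = 0.0215) and 1 lower (Heyl, -1.12, adjusted p = 0.0164). Of 14 YAP pathway genes, 3 were called higher and 1 lower. Ajuba rose from 2.43 ± 0.707 to 6.53 ± 1.15 CPM (adjusted p = 7.40e-04). The YAP targets Ccn2 and Ccn1 went in opposite directions, by 1.16 and -1.08 on the log2 scale (adjusted p = 0.0268 and 0.0127), with Tead1 as the other gene called higher. Receptors of osteopontin, the product of Spp1, were listed too. Of these 8 genes 0 were called lower and 2 higher, Itgb3 (log2 fold change 1.196, adjusted p = 0.014, edgeR) and Itga4 (0.68, adjusted p = 0.047).

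Genes most like each called gene were sought by Pearson's r of log2 CPM over the 12 livers, which includes the step between the genotypes. For Afp they were Ano10 (r = 0.983), Tceal5 (0.980) and Mep1a (0.978). Tceal5 had 0.00967 CPM on average in Het and 0.897 CPM in KO. Mep1a had no read in any Het liver and 0.489 CPM on average in KO. Both passed the filter on low counts only through the KO livers where they are high. A high r with a gene raised in KO partly follows from that. For H19 they were Igdcc4 (0.930), Unc93b1 (0.927) and Gm8834 (0.925). For Igf2 they were Abtb2 (0.985), Tmem252 (0.973) and Serpina3n (0.971). Tmem252 had no read in any Het liver and 0.243 CPM on average in KO, so it too passed the filter only through KO livers. Serpina3n, an acute phase protease inhibitor gene, rose from 214 to 709 CPM on average (adjusted p = 4.70e-04).

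In the Het livers Epcam, Krt19 and Spp1 ran together. Over the 6 Het livers r was 0.98 between Epcam and Krt19, 0.97 between Epcam and Spp1 and 0.97 between Krt19 and Spp1. Over the 6 KO livers the same pairs gave -0.09, 0.44 and 0.17. Some other members shared this pattern in Het. With Epcam, Krt19 and Spp1, r was 0.87, 0.86 and 0.87 for Igf2 and 0.88, 0.90 and 0.76 for Cd24a. Afp went the other way, with -0.68, -0.63 and -0.725, and H19 gave 0.51, 0.55 and 0.45. In Het livers Igf2 rested on 7 to 18 reads and H19 on 1 to 39. Gpc3 and Krt7 ran together in both genotypes, with r = 0.80 in Het and 0.96 in KO. The pairs were chosen after their values were seen, and 6 livers give a description only. The difference between the genotypes in these correlations was not tested.

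Markers of other cells that could carry these transcripts also moved. Lipid-associated macrophages can make Spp1: of their 10 markers 7 were called higher, and the summed level was 219 to 271 CPM in Het and 249 to 329 CPM in KO. Most of that sum was Ctsd, at 221 CPM in Het and 248 CPM in KO on average, which was not called (adjusted p = 0.271, edgeR). Gpnmb rose from 0.144 ± 0.0607 to 2.91 ± 1.90 CPM, Mmp12 from 0.226 to 1.78 CPM and Atp6v0d2 from 4.19 to 18.6 CPM on average (adjusted p = 3.22e-05, 2.40e-04 and 4.66e-04). Of 8 Kupffer cell markers 4 were called higher, among them Marco, Vsig4 and Cd5l, with sums of 133 to 351 CPM in Het and 182 to 553 CPM in KO. The part of these cells in the level of Spp1 was not tested. Of 10 stellate cell markers 0 were higher and 3 lower, Lrat, Reln and Colec11 (sums 283 to 529 and 154 to 317 CPM). Of 7 sinusoidal endothelium markers 4 were lower, among them Clec4g, Kdr and Oit3 (sums 174 to 312 and 123.4 to 216 CPM).

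Markers of mesothelial, blood and other epithelial cells were mixed. None of 7 mesothelium markers was called in either direction, with sums of 1.27 to 8.81 CPM in Het and 1.89 to 10.4 CPM in KO, and the most abundant by TPM was Msln. None of 8 B cell markers was called, led by Igkc on the TPM scale (sums 4.94 to 53.3 and 6.27 to 29.0 CPM). Of 10 neutrophil markers 4 were tested and 1 was higher, S100a8 (sums 0.553 to 3.52 and 1.89 to 3.50 CPM). Of 9 erythroid markers 8 were tested, with Ermap higher (log2 fold change 2.93, adjusted p = 4.11e-04, no Het liver at the filter level) and Alas2 lower (-1.41, adjusted p = 7.40e-04), and sums of 136.4 to 525 and 111.4 to 267 CPM. Of 8 pancreatic acinar markers only Cela2a was tested, and it was higher (log2 fold change 2.07, adjusted p = 0.00222), while 4 were at 0 in every liver (sums 0.0650 to 0.583 and 0.836 to 1.65 CPM, without overlap). Of 8 gallbladder and gut markers 3 were tested and Fabp2 was lower (log2 fold change -1.48, adjusted p = 9.51e-04), while 2 were at 0 in every liver (sums 35.1 to 58.4 and 11.2 to 29.5 CPM, without overlap). Most of the gallbladder and gut sum was Fabp2, at 35.8 CPM in Het and 13.5 CPM in KO on average. Most of the acinar sum was Cela2a, at 0.271 CPM in Het and 1.29 CPM in KO on average. The part of these cells in the levels of the 10 genes was not tested. Of the 9 hepatocyte markers 3 were called higher (Hp, Ahsg and Fgb) and 2 lower (Serpina1c and Ttr).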

How the data were processed

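Total RNA of 12 livers was depleted of ribosomal RNA, sequenced as stranded paired reads and processed by the authors with STAR 2.7.9a on GRCm39 and Salmon 1.10.1 on GENCODE M34. The estimated counts per gene deposited by the authors were rounded (12.0% of values were not whole). The deposited TPM values, in which Rn7s1 alone takes 29.7 to 40.0%, served for levels between genes and for alternatives, as did the deposited length-scaled estimated counts. Genes with at least 5 reads, scaled to the median library, in at least 3 livers were kept. Library sizes were scaled by TMM (factors 0.885 to 1.06), and a mean per group was fitted with edgeR 4.0.16 in R 4.3.3 (quasi-likelihood test, robust, prior count 2). Genotype contrasts average the sexes or take 1 sex, and p-values were adjusted by Benjamini-Hochberg over all 19350 tested genes. Intervals and standard errors come from the F statistic. Each library held 30044781 to 43634046 counts, and at this depth the low genes rest on few reads. P-values set the difference between groups against the spread between mice within groups, which was estimated with the help of all tested genes.

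The members, gene lists and tests were chosen with earlier results of these data known, and the newer quasi-likelihood method was taken as the main one with results of the older one also known. Named were all 10 genes, Xpa and Ercc8, up to 3 called genes of smallest p per list (without a call in a marker list, the most abundant gene) and the 3 genes most like each called gene; names outside this rule were chosen after their values were seen. Alternatives were scaling by relative log expression, no filter, length-scaled counts, DESeq2 1.42.0, limma 3.58.1 on log2(TPM + 1) and log2(TPM + 0.1), 1 sex alone, each mouse left out and, chosen after seeing the data, the older quasi-likelihood method. Gene coordinates come from GENCODE M39, a later release on the same build, which lists all 10 genes, and promoters from RefSeq (GRCm38.p6), where H19 was not matched.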

Additional observations from a re-analysis of the deposited data

Results flagged for a closer look

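Each gene was looked at in the 6 Het and in the 6 KO livers, 20 groups in all, and 2 livers stood apart by Dixon's test. Chance flags about 1 in 20 such groups. H19 in Het_F_126 was 0.842 CPM, with the next Het liver at 0.282 CPM. Sox9 in Het_M_137 was 7.32 CPM, with the next Het liver at 2.89 CPM.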

How the results depend on the processing

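Afp, H19 and Igf2 were called over both sexes under all 19 alternatives, and Gpc3 was added in 1 of them, without Het_F_126. The count of called genes within a sex was less stable. In females it was 1 instead of 2 with limma on log2(TPM + 1) and on log2(TPM + 0.1), where Igf2 lost its call, and 2 to 3 with a mouse left out. In males it was 1 instead of 2 without the filter, with length-scaled counts and with both limma settings, where H19 lost its call, and 1 to 2 with a mouse left out. The older quasi-likelihood method, chosen after seeing the data, called the same genes as the newer one in each comparison of KO with Het. DESeq2 also called H19 in females (adjusted p = 0.019). No gene was called for the interaction or between the sexes under any alternative. Directions turned for Krt19 without KO_F_112 (-0.070, range with a mouse left out -0.070 to 0.44), for Sox9 without KO_M_136 (-0.033, range -0.033 to 0.62) and for the interaction of H19 with limma on log2(TPM + 1) (-0.14), none of them called, and the cause was not tested. On the log2(TPM + 1) scale the change of Afp was 2.12, since that scale understates low genes. No paired analysis was possible because no mouse number is shared between groups and the labels tie no KO mouse to a Het littermate.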
